A study of Mus musculus with 9 samples.

Results

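H3K27ac regions found in just 1 of 2 mouse pancreatic cancer lines without Kdm6a, and in no other line of the series, numbered 2706 in the female KDM6A-KO line and 4325 in the male KDM6A-KO line. They were chosen by merging the 3 H3K27ac lists of autosomes 1 to 19 wherever regions overlapped by at least 1 bp. Merged regions overlapped by exactly 1 KO list and not by the male KDM6A-WT list were kept, which left 7031 of 26106 merged regions. Because regions within a list do not overlap, each member is 1 region of its own list as deposited. The regions of the female KO list alone made up 10.4% of all merged regions and those of the male KO list alone 16.6%, and 35.0% of merged regions were in exactly 1 list, WT included. These shares follow from the choice of members and are a description.

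The series profiled H3K27ac, H3K4me3 and H3K27me3 by chromatin immunoprecipitation and sequencing (ChIP-seq) in 3 cell lines, with 1 library per mark and line, 9 libraries in all. The groups were a female line carrying the Kdm6a knockout (female KO), a male line carrying it (male KO) and a male line with wild-type Kdm6a (male WT). All 3 lines came from pancreas of mixed C57BL/6-SV129 mice, were grown in F12/DMEM with EGF and received no treatment, and the labels give no mouse age. The sources used here do not give the driver of tumour formation, the promoter behind the deletion, or the number of clones or tumours behind a line. Loss of Kdm6a itself could not be checked in lists of histone marks. Each line is 1 sample of its genotype, and the female KO line also differs from WT in sex. No test of a difference was therefore possible, and the intervals of shares below are 95% Wilson intervals, which take regions as independent and reflect counting error alone.

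Acetylation of lysine 27 on histone H3 (H3K27ac) marks active promoters and enhancers, and the set of active enhancers differs widely between cell types. H3K4me3 marks promoters. H3K27me3 is laid down by the Polycomb complex at silenced genes, occupies the same residue as H3K27ac, and is removed by the demethylase that Kdm6a encodes. Kdm6a is also a subunit of a complex with H3K4 methyltransferases that act at enhancers. Gene names and base sequences are not given for the regions here, because no annotation or genome of the files' build, mm9, was used.

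Reads in autosomal H3K27ac regions numbered 12153207 in the female KO library, 10900677 in the male KO library and 3940762 in the WT library. In places held by all 3 H3K27ac lists, mean read density was 71.0 reads per kb in female KO and 88.2 in male KO, against 39.5 in WT. The WT library thus had the lowest read density in these shared places. Sequenced reads were not given in the sources used here. Whether weak regions went uncalled in the WT list for lack of reads was not tested. After scaling each KO list to the read density of WT, 1598 of the 2706 regions in female KO alone (59.1%) and 2113 of the 4325 in male KO alone (48.9%) reached the density that all but the lowest 5% of WT regions have. The others lay below it. With both KO lists cut to that density before merging, 1861 regions were in female KO alone and 2429 in male KO alone. These include regions that overlapped a region of the other KO list that the cut removed.

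Regions found in 1 KO list alone were narrower and had fewer reads per kb than the other regions of their list, and the male KO ones were the narrowest. In the female KO line their width ranged from 0.2 to 62 kb with a median of 5.2 kb (5.0 to 5.4 kb, binomial interval of the median), against 8.4 kb for the regions that overlapped another list. In the male KO line the width ranged from 0.4 to 47.4 kb with a median of 2.6 kb (2.6 to 2.8 kb), against 5.2 kb. Regions of at least 8 kb made up 24.9% of those in female KO alone and 2.84% of those in male KO alone. The 2103 regions in WT alone had a median width of 2.8 kb. The female KO list was the widest in general, with a median of 7.8 kb over all its autosomal regions, against 4.6 kb in male KO and 4.2 kb in WT. These widths come from the lists that chose the members, as do the densities that follow.

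Read density showed the same order within each list. The regions in female KO alone had a median of 31.7 reads per kb (quartiles 27 and 37.9), against 50.5 for the other regions of that list. Those in male KO alone had 36.9 reads per kb (31.2 and 44.5), against 62.9. Below the median density of their own list lay 90.5% of the regions in female KO alone and 92.6% of those in male KO alone, and 52 and 31 regions were above the upper quartile. They held 5.01% of the reads of the female KO list and 5.02% of the reads of the male KO list, over 17.1 and 13.8 Mb. WT showed this too: its regions in WT alone had 20.4 reads per kb, against 31.2 for its other regions.

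**Figure D1:**
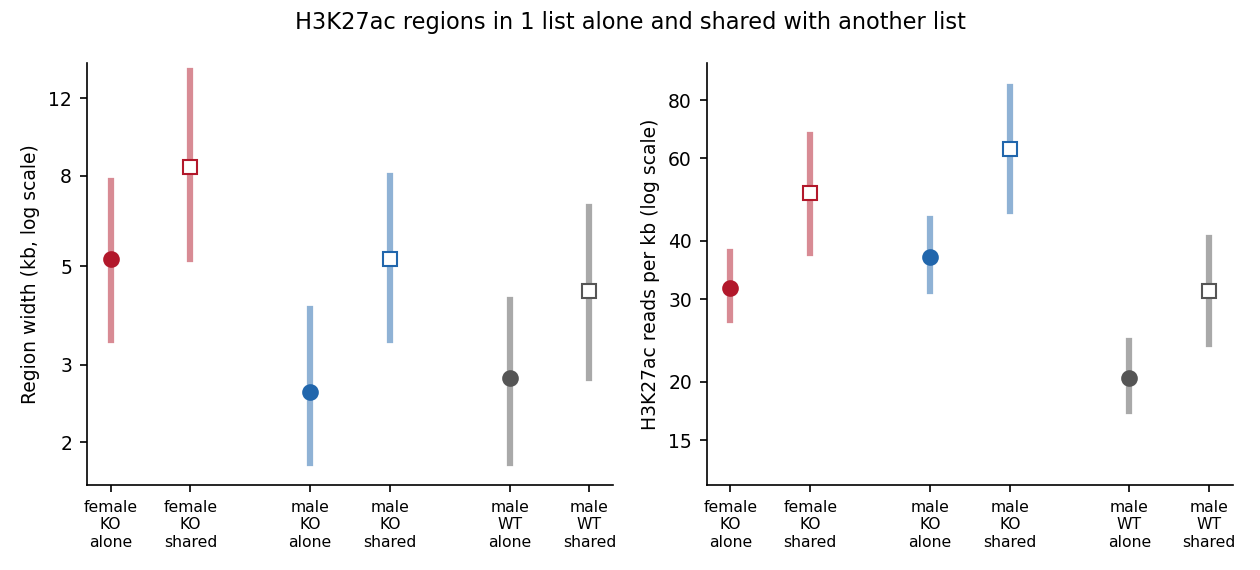
Median (point) and quartiles (bar) of region width in kb and of H3K27ac reads per kb, both on log scales, for autosomal regions found in 1 list alone (filled circles) and overlapping another list (open squares) in the female KO, male KO and male WT lists. In each list the regions found there alone have the lower median, 5.2 against 8.4 kb in female KO, 2.6 against 5.2 kb in male KO.

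The rule turns on an overlap of 1 bp, and few regions lay within 400 bp of that border. In female KO, 30 members had a region of another list within 400 bp without overlap, with a median of 31.2 reads per kb, and 13 non-members were overlapped by 200 or 400 bp, with 31.9 reads per kb. In male KO these were 53 members with 35.5 reads per kb and 31 non-members with 34.1 reads per kb. Regions on both sides of the border had about the same density. The members there were wider than the non-members, with medians of 5.2 against 2.4 kb in female KO and 3.2 against 2.2 kb in male KO. Requiring a margin of 5 kb to the other lists gave 2081 members in female KO and 3670 in male KO.

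Many regions in female KO alone lay beside a region that another line also held. Within 1 kb of a shared region of the same list lay 486 of the 2706 regions in female KO alone (18.0%, 16.6 to 19.5%) and 185 of the 4325 in male KO alone (4.28%, 3.71 to 4.92%). Within 5 kb these were 29.9% and 13.2%. The median distance to the nearest WT region was 23 kb for regions in female KO alone and 42.6 kb for those in male KO alone. More than 50 kb from any WT region lay 30.3 and 46.3% of them. The male KO line thus had more of its one-line regions far from H3K27ac of other lines.

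Chromosomes differed widely, and the 2 KO lines differed in which ones stood out. The share of an autosome's merged regions that were in female KO alone ran from 4% on chromosome 15 over a median of 9.41% to 21.7% on chromosome 4. For male KO alone it ran from 10.7% on chromosome 19 over 15.3% to 28.5% on chromosome 15. On chromosome 15, 53 of 1325 merged regions were in female KO alone (3.07 to 5.19%) and 377 in male KO alone (26.1 to 30.9%). Chromosome 4 held 361 regions of female KO alone among 1667 (19.7 to 23.7%) and 282 of male KO alone, 16.9%. Chromosome 6 held 221 of female KO alone among 1189, 18.6% (16.5 to 20.9%), and 158 of male KO alone, 13.3%. Chromosomes 4 and 6 were the only autosomes with more regions in female KO alone than in male KO alone. Chromosome 13 came after chromosome 15 in male KO, with 23.2% (21.0 to 25.4%), and chromosome 18 followed with 20.1%. Per length, chromosome 15 held 0.512 regions of female KO alone and 3.64 of male KO alone per Mb, and chromosome 4 held 2.32 and 1.81. With KO lists scaled to the read density of WT, the share in male KO alone on chromosome 15 was 16.7%. When only an overlap of 50% counted as shared, several regions of a list can lie in 1 merged region. The percents are then ratios of list regions to merged regions, not shares. For female KO alone they were 39.2% on chromosome 4, 43.7% on chromosome 6 and 8.38% on chromosome 15. For male KO alone they were 19.9, 14.5 and 33.0%. With each list cut at its median count, the male KO share of chromosome 6 was 5.54%. With WT as the only list set against a KO list, regions of both KO lines are counted for each, and the percents are again such ratios. Female and male KO had 36.4 and 35.3% on chromosome 4, 31.6 and 30.1% on chromosome 6, and 10.8 and 36.9% on chromosome 15. Under that setting the lines lay close together on chromosomes 4 and 6 and apart on chromosome 15.

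**Figure D2:**
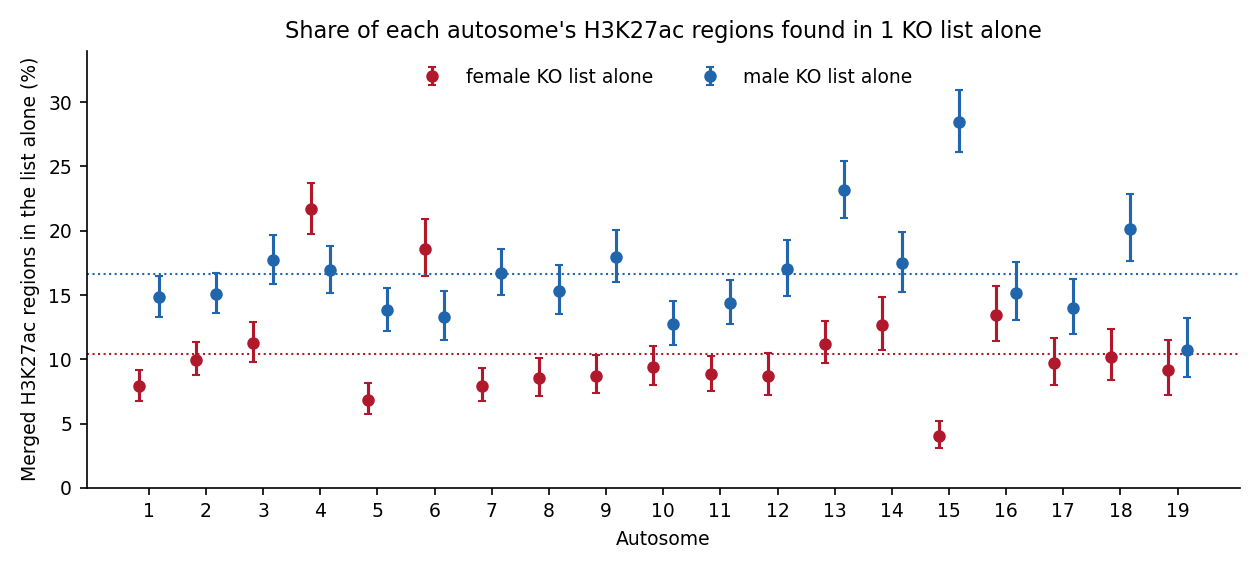
Percent of each autosome's merged H3K27ac regions that lie in the female KO list alone (red) or the male KO list alone (blue), with 95% Wilson intervals. Dotted lines give the shares over all autosomes, 10.4 and 16.6%. Chromosomes 4 and 6 stand out for female KO, and chromosome 15 is the highest for male KO and the lowest for female KO.

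Read density at places held by all 3 lines also differed on these chromosomes, in all 3 marks. The log2 ratio of reads per kb, female KO over male KO, was taken per 200 bp bin in bins present in each of a mark's 3 lists. Each chromosome's median was set against the median of all autosomes, so 0 is the typical ratio. On chromosome 15 this ratio was -0.16 for H3K27ac, -0.25 for H3K4me3 and -0.24 for H3K27me3. On chromosome 4 it was 0.27, 0.24 and 0.41, and on chromosome 6 it was 0.16, 0.16 and 0.24. Chromosomes 10, 17, 18 and 19 also had ratios above 0 in every mark, up to 0.12 for H3K27ac on chromosome 19, with fewer regions in female KO alone than in male KO alone. Across the 19 autosomes, the log2 ratio of regions in female KO alone to regions in male KO alone had a Pearson correlation of 0.83 with the H3K27ac ratio (Spearman 0.75). It was 0.91 with the H3K4me3 ratio (Spearman 0.74) and 0.64 with the H3K27me3 ratio (Spearman 0.47). Without chromosomes 4, 6 and 15 the Pearson values over 16 autosomes were 0.61, 0.57 and 0.17. These are descriptions over chromosomes that share the same libraries, and the H3K27ac ratio comes from the lists that chose the members. The copy number of the chromosomes was not measured in these files, and its part in the counts was not tested.

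**Figure D3:**
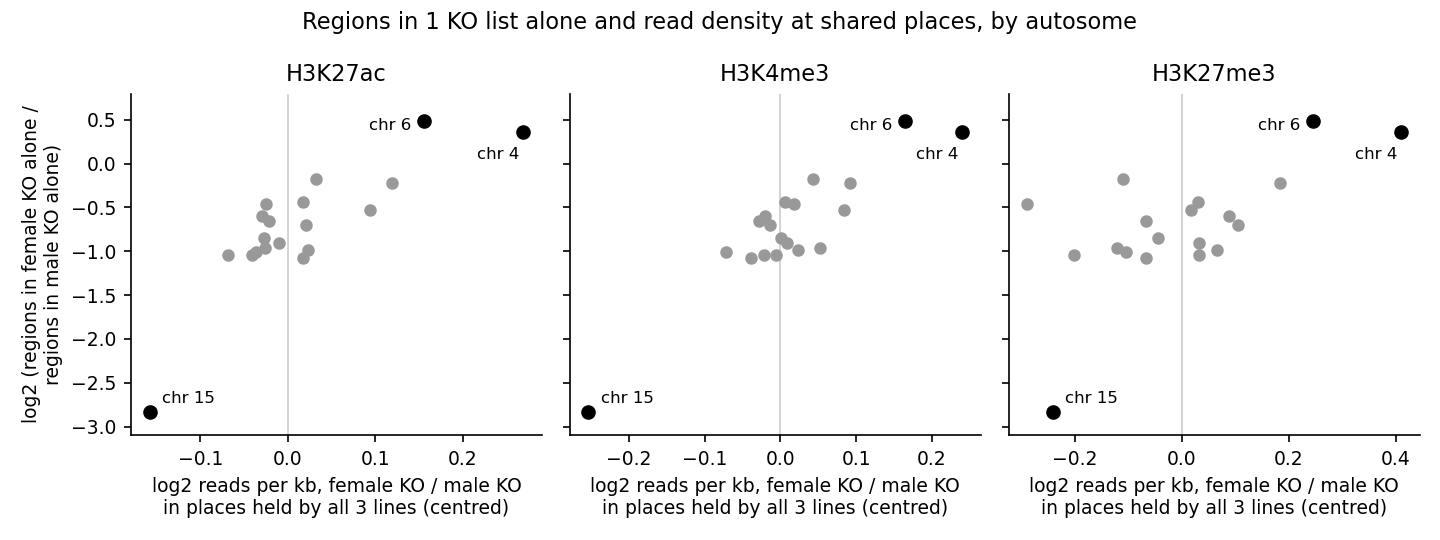
One point per autosome: log2 ratio of the number of regions in female KO alone to the number in male KO alone, against the centred log2 ratio of reads per kb, female KO over male KO, in bins held by all 3 lines, for each mark. Chromosome 15 is the lowest point, left of 0 in all 3 panels, and chromosomes 4 and 6 are the highest, right of 0.

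Windows of 5 Mb were grouped by the same ratio for H3K4me3. In the 26 windows whose H3K4me3 ratio was under -0.25, 5.58% of merged H3K27ac regions were in female KO alone and 30.2% in male KO alone. In the 392 windows between -0.25 and 0.25 these shares were 9.89 and 15.7%. In the 31 windows at 0.25 or more they were 21.9 and 12.1%. These groups largely repeat the chromosomes: 13 of the 26 lowest windows were on chromosome 15, and of the 31 highest 15 were on chromosome 4 and 7 on chromosome 6. Without chromosomes 4, 6 and 15, the share in female KO alone was 7.41, 9.37 and 13.4% in the low, middle and high groups, of which the low and high ones held 9 windows each. The share in male KO alone was then 20.9, 15.7 and 20.5%, so it no longer fell as the H3K4me3 ratio went up. The same bands of the H3K27ac ratio held 37, 320 and 18 windows without these chromosomes. There the share was 21.8, 15.3 and 13.9% for male KO alone and 7.11, 9.55 and 10.5% for female KO alone. The H3K27ac ratio comes from the lists that chose the members. Along chromosome 4 the counts differed from window to window. From 115000001 to 120000000, 3 of 138 merged regions were in female KO alone and 63 in male KO alone. From 130000001 to 140000000 the counts over 2 windows were 42 and 39 for female KO alone, against 7 and 2 for male KO alone. The H3K4me3 ratio was -0.36 in the first stretch and 0.44 in both windows of the second. Other windows did not follow the ratio: from 150000001 to 155000000, 13 regions were in female KO alone and 28 in male KO alone at an H3K4me3 ratio of 0.22 and an H3K27ac ratio of 0.55. From 10000001 to 15000000 there were 21 and 4 at ratios of 0.06 and -0.02.

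The windows of 1 Mb with the most members were all on chromosome 4, in both lines. In male KO they were 119000001 to 120000000, with 29 of 35 merged regions in male KO alone, 154000001 to 155000000, with 24 of 36, and 120000001 to 121000000, with 20 of 35. Only 1 region of these 3 windows was in female KO alone. In female KO the windows were 11000001 to 12000000, with 17 of 28 merged regions in female KO alone, 134000001 to 135000000, with 16 of 29, and 149000001 to 150000000, with 13 of 27. In these, 1 region was in male KO alone. The H3K4me3 ratio in shared bins was -0.59 and -0.77 in the male KO windows from 154000001 and 120000001, and 0.06, 0.26 and 0.71 in the female KO windows. In the window from 119000001, the 3 lines shared 5.6 kb of H3K27ac and 17.4 kb of H3K4me3, under the minimum of 20 kb for a ratio. Of the 2193 windows with merged regions, 113 had at least 5 members of female KO and 222 at least 5 of male KO. These held 27.3 and 35.1% of the members.

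Members also followed one another without an intervening region of any other kind. Runs of at least 3 neighbouring merged regions held 444 of the 2706 regions in female KO alone and 1299 of the 4325 in male KO alone. These sets made up 10.4 and 16.6% of merged regions, so their run counts are not on equal terms. Runs of other sets of merged regions are not given here. The longest run in male KO had 16 regions over 2504 kb on chromosome 13, from 70926801 to 73430600. It was followed by 14 regions over 748 kb on chromosome 8, from 37352401 to 38100600, and 12 over 272 kb on chromosome 4, from 119522401 to 119794800. In the last of these the regions covered 90.4 kb, in the run on chromosome 13 they covered 44.2 kb. The longest runs in female KO had 9 regions over 252 kb on chromosome 4, from 134541201 to 134792800, 8 regions over 184 kb on chromosome 4, from 11482401 to 11666800, and 7 over 368 kb on chromosome 6, from 84158401 to 84526000.

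H3K4me3, measured in libraries that the choice did not use, was at about 1 in 5 of the members, and was most frequent in the line whose H3K27ac list held them. At regions in female KO alone, H3K4me3 of female KO was at 548 of 2706, 20.3% (18.8 to 21.8%), that of male KO at 405 regions (13.7 to 16.4%) and that of WT at 14.1% (12.9 to 15.5%). At regions in male KO alone, H3K4me3 of female KO was at 563 regions, 13.0%, that of male KO at 944 of 4325, 21.8% (20.6 to 23.1%), and that of WT at 14.8% (13.7 to 15.9%). Over all merged H3K27ac regions the shares were 42.3% for female KO, 44.8% for male KO and 46.4% for WT, and 50.1% for any line. Of the members, 21.4 and 22.5% had H3K4me3 of any line, against 79.3% of the regions in all 3 H3K27ac lists, 46.8% of those that both KO lines held without WT, and 12.7% for WT alone. Regions that 1 KO line shared with WT alone had H3K4me3 of any line at 29.9% for female KO and 30.4% for male KO. H3K4me3 of that KO line was at 19.5 and 21.1% of them, close to the own-line shares of the members. The members were thus poorer in H3K4me3 of any line than regions held by several lists. For H3K4me3 of the own line this held only against regions that both KO lists held. The shares depended on the lists. With each H3K27ac list restricted to regions at or above its median count, H3K4me3 of the own line was at 46.8% of 1220 regions in female KO alone and at 47.4% of 1784 in male KO alone. The cut also removed weaker regions of the other lists. These sets therefore include regions that overlapped another list as deposited, and their shares are not those of strong members. Over all 2706 and 4325 members, the median distance to the nearest H3K4me3 region of any line was 17.8 kb for female KO alone and 24.8 kb for male KO alone.

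The gap in H3K4me3 between members and regions of all 3 lists was present within classes of width. Among regions of 2 to 4 kb, H3K4me3 of female KO was at 22.3% of those in female KO alone (19.5 to 25.4%) and at 77.1% of those in all 3 lists (73.7 to 80.2%). H3K4me3 of male KO was at 20.2% of those in male KO alone (18.5 to 21.9%) and at 78.4% of those in all 3 lists (496 of 633). Members under 2 kb had the highest shares, 32.2% in both lines (49 of 152 for female KO, 355 of 1104 for male KO). Members with H3K4me3 of their own line had a higher H3K27ac density than those without, 37.4 against 30.5 reads per kb in female KO alone and 44.2 against 35.4 in male KO alone.

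**Figure D4:**
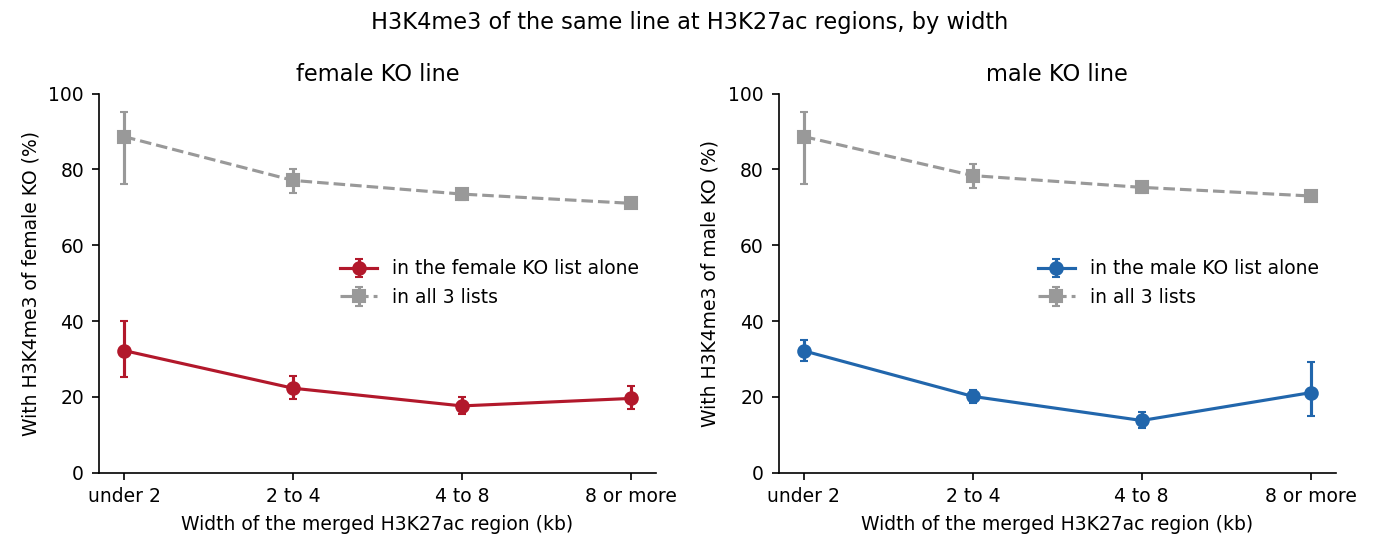
Percent of H3K27ac regions with H3K4me3 of the female KO line (left) or the male KO line (right), by width of the merged region in kb, with 95% Wilson intervals, for regions in that line's H3K27ac list alone (circles) and in all 3 lists (squares). In every width class the members lie below the regions of all 3 lists.

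Where H3K4me3 was in only 1 line, it was nearly always the line with the H3K27ac region. H3K4me3 in exactly 1 line was found at 158 regions in female KO alone, and in 136 of them (86.1%) that line was female KO. At regions in male KO alone it was male KO in 247 of 274 (90.1%). At regions in all 3 H3K27ac lists, 604 had H3K4me3 in exactly 1 line, which was female KO in 12.6%, male KO in 13.2% and WT in 74.2% of them. At regions in WT alone it was WT in 155 of 163, 95.1%. Over all 26106 merged regions, 1620 had H3K4me3 in exactly 1 line. That line was female KO in 19.6%, male KO in 25.4% and WT in 55.1% of them. H3K4me3 of the own line only was at a small part of the members, 5.03% for female KO alone and 5.71% for male KO alone. Over all merged regions, H3K4me3 of female KO only was at 1.21% and that of male KO only at 1.57%. More of the members had H3K4me3 in all 3 lines, 333 regions (12.3%) and 470 regions (10.9%), and 78.6 and 77.5% had none in any line.

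At members with H3K4me3 in all 3 lines its density could be compared. The centred log2 ratio of H3K4me3 reads per kb, female KO over male KO, had a median of 0.03 (-0.03 to 0.09) at 331 regions in female KO alone and of -0.78 (-0.85 to -0.70) at 470 in male KO alone. It was above 0 at 174 of the 331 and at 21 of the 470. With each chromosome set against its own median the values were -0.03 and -0.75. Regions in all 3 H3K27ac lists had -0.01 and those that both KO lines held without WT -0.16. The 53 regions in WT alone, which neither KO list holds, had -0.53, so values below 0 were also found outside the male KO list.

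The members with the longest H3K4me3 of their own line and none in the others show these cases. In female KO the region on chromosome 6 from 106706201 to 106714600 had 925 H3K27ac reads, 110 per kb, with H3K4me3 over 6.4 of its 8.4 kb at 202 reads per kb. The neighbouring member from 106715201 to 106717600 had the highest density of those at least 2 kb wide, 173 reads per kb, and H3K4me3 of female KO over 2.2 kb. H3K27ac of male KO and of WT lay within 4 kb of both. A region on chromosome 12 from 83344201 to 83353800 had 122 H3K27ac reads per kb and H3K4me3 of female KO over 5.6 kb, with the nearest WT H3K27ac 66.8 kb away. The third, on chromosome 4 from 129284201 to 129289400, had 31.0 H3K27ac reads per kb. In male KO they were 43500601 to 43509400 on chromosome 16, 107822601 to 107830000 on chromosome 7, and 120521201 to 120532800 on chromosome 4. They had 32.7 to 49.9 H3K27ac reads per kb and 5 to 6.6 kb of H3K4me3. H3K27me3 of both KO lines covered the one on chromosome 4 whole, 11.6 kb. The one on chromosome 7 had 5.2 kb of H3K27me3 of female KO, and the one on chromosome 16 had none in any line. Of these 6 regions with H3K4me3 of 1 line, those on chromosomes 6 and 12 in female KO were the densest.

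H3K27me3 at the members had the same order of lines in both sets, female KO above male KO above WT, whichever line held the H3K27ac region. At regions in female KO alone, H3K27me3 of female KO was at 604, 22.3% (20.8 to 23.9%), that of male KO at 12.8% (11.6 to 14.1%) and that of WT at 7.43% (6.50 to 8.48%). At regions in male KO alone the shares were 27.3% for female KO (1180 regions), 15.4% for male KO (14.3 to 16.5%) and 12.7% for WT (11.7 to 13.7%). Over all merged regions they were 24.7, 10.7 and 5.75%, and 25.9% for any line. The H3K27me3 lists themselves had this order of length and covered 13.3% of the autosomes (female KO), 9.6% (male KO) and 5.85% (WT). The number of reads in autosomal H3K27me3 regions fell in this order too, from 17976134 over 4804337 to 2394056. Bins held by all 3 H3K27me3 lists had mean densities of 67.1, 23.1 and 17.6 reads per kb, lines in the same order. Whether the order of the shares follows from these read numbers was not tested. Of the summed length of regions in female KO alone, H3K27me3 covered 18.5, 11.1 and 5.86%, and of that in male KO alone 24.8, 11.8 and 8.63%. The H3K27me3 of WT at regions in male KO alone was the value farthest above its share of all merged regions. With each H3K27ac list cut at its median count, which changes the set of regions, it was 6.50%. The share of all merged regions was not computed under that cut. At regions in WT alone, H3K27me3 of WT itself was at 1.81% (1.32 to 2.47%), lower than the own-line share at members of either KO line.

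**Figure D5:**
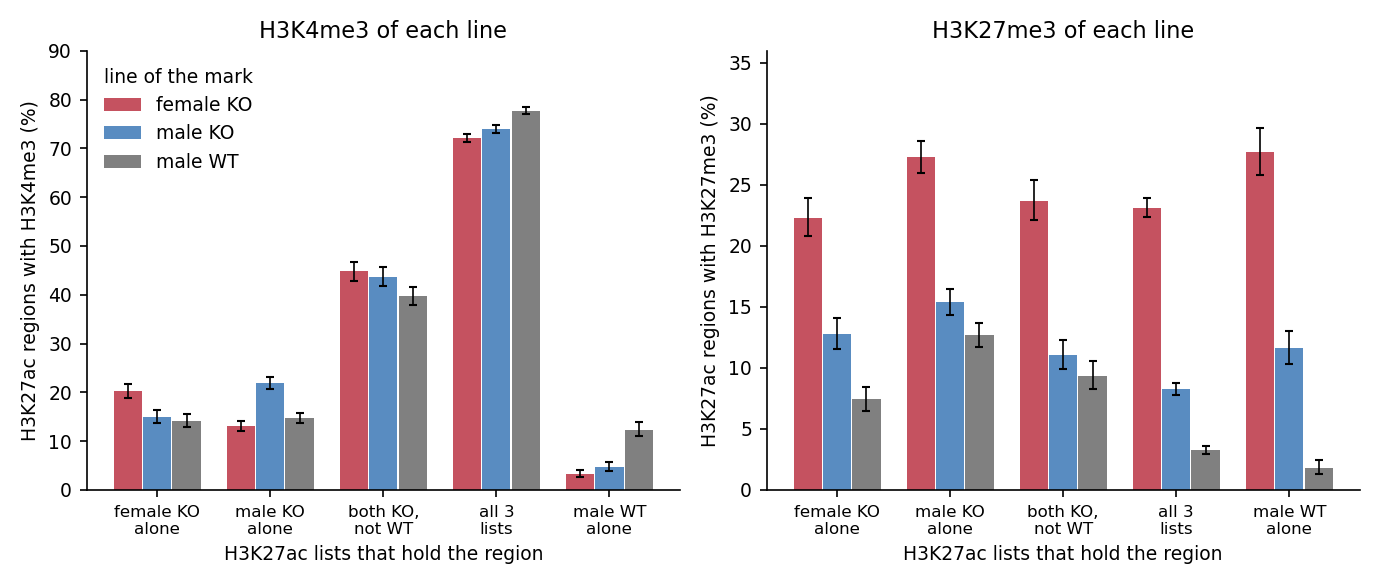
Percent of H3K27ac regions overlapped by H3K4me3 (left) and H3K27me3 (right) of the female KO, male KO and male WT lines, with 95% Wilson intervals, for regions in 1 KO list alone, in both KO lists without WT, in all 3 lists, and in WT alone. H3K4me3 peaks in the own line at the members, while H3K27me3 keeps the order female KO, male KO, WT in every set.

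Within the members, H3K27me3 was more frequent at regions with H3K4me3 than at regions without, though in female KO most regions with H3K27me3 had no H3K4me3 (383 of 604). In female KO, 221 of the 548 regions with H3K4me3 also carried H3K27me3 (40.3%, 36.3 to 44.5%), against 17.7% of those without H3K4me3. In male KO these were 429 of 944 (45.4%, 42.3 to 48.6%) and 6.98%. The difference was not limited to the own line: at regions in male KO alone, H3K27me3 was at 63.6% of those with H3K4me3 in female KO and at 43.7% in WT, against 21.9 and 7.30% of those without. Regions of both KO lines without WT had 36.4% with and 13.4% without H3K4me3 in female KO, and 18.5 and 5.27% in male KO. At regions in all 3 H3K27ac lists these were 25.2 and 17.8% in female KO, and 9.03 and 6.09% in male KO. Promoters that carry H3K4me3 and H3K27me3 together are known as bivalent. These shares come from whole populations of cells, so 2 marks over 1 region need not lie on the same chromosomes. Neither mark was at 65.6% of the regions in female KO alone and at 72.7% of those in male KO alone, each in their own line.

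Members where WT carried H3K27me3 and the own line carried H3K27ac without H3K27me3 were few. They numbered 24 of the regions in female KO alone (0.887%, 0.597 to 1.32%) and 130 of those in male KO alone (3.01%, 2.54 to 3.56%). The same state of the 2 H3K27me3 lists was at 0.567% of all merged regions for female KO and 1.30% for male KO, and at 0.163 and 0.594% of regions in all 3 H3K27ac lists. The opposite state, H3K27me3 in the own line and not in WT, was at 15.8% of the regions in female KO alone and 5.71% of those in male KO alone, against 2323 of 11623 and 5.57% at regions in all 3 lists. The WT library had the fewest H3K27me3 reads, and the part of read number in that opposite state was not tested. H3K27me3 in the other KO line and not in the own was at 41 regions of female KO alone (1.52%) and at 584 of male KO alone (13.5%). Over all merged regions these were 0.873 and 14.9%, and at regions in all 3 lists 0.439 and 15.3%, so the large number for male KO is no larger than at regions that all lines acetylate.

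The 3 members of female KO with the longest WT H3K27me3 and none of their own are examples of this state with strong H3K4me3. On chromosome 13 from 36809401 to 36831600, female KO had 2657 H3K27ac reads over 22.2 kb, H3K4me3 over 15.2 kb at 326 reads per kb, and no H3K27me3. There male KO had H3K4me3 over 6.4 kb at 34.8 reads per kb and H3K27me3 over 19.2 kb, and WT had them over 2 and 17.4 kb. On chromosome 1 from 122491201 to 122507800, H3K4me3 covered all 16.6 kb in female KO, 4.6 kb in male KO and 7.6 kb in WT. H3K27me3 covered none of it in female KO, 16.6 kb in male KO and 15.6 kb in WT. On chromosome 1 from 33953001 to 33971800, H3K4me3 covered 10.8 kb in female KO, 3.6 kb in male KO and 2.8 kb in WT, and H3K27me3 covered none, 9.6 and 17.2 kb in the same order. All 3 regions thus carried H3K4me3 in every line, over the longest stretch in the line without H3K27me3.

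The corresponding members of male KO carried no H3K4me3 in any line. They were 96580601 to 96590200 on chromosome 11, 163169401 to 163176000 on chromosome 2, and 61246001 to 61254000 on chromosome 18. H3K27me3 of female KO covered each of them whole, 9.6, 6.6 and 8 kb, and H3K27me3 of WT covered 7.4, 6.6 and 6.4 kb. Male KO had 338, 190 and 565 H3K27ac reads there, of which the region on chromosome 18 had the highest density, 70.6 reads per kb. In these regions H3K27me3 was in the female KO and WT lists and H3K27ac in the male KO list.

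The longest members were wider in female KO. The longest was on chromosome 6 from 72145401 to 72207400, with 5458 H3K27ac reads over 62 kb, and it lay under H3K27me3 in every line: 62 kb in female KO, 58.4 kb in male KO and 48.2 kb in WT. H3K4me3 covered 13.6 kb of it in female KO, 2.8 kb in male KO and 1.4 kb in WT. The next, on chromosome 6 from 52116801 to 52173400, had 2643 reads over 56.6 kb and was covered whole by H3K27me3 in all 3 lines, with H3K4me3 over 42.6 kb in female KO, none in male KO and 1.6 kb in WT. On chromosome 19 from 38646601 to 38695000, female KO had 4487 reads over 48.4 kb and H3K4me3 over 3.6 kb, with no H3K4me3 in the other lines. The remaining 2, 38678001 to 38727400 of chromosome 6 and 170271201 to 170317600 of chromosome 1, had neither mark in any line.

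In male KO, 4 of the 5 longest members were on chromosome 4. The longest, from 154872001 to 154919400, had 2390 reads over 47.4 kb and lay 0.6 kb from a female KO region and 4.6 kb from a WT region. The others there were from 56483601 to 56507800, from 118916601 to 118936000 and from 119945801 to 119965200, with 688 to 1052 reads. The last was covered whole, 19.4 kb, by H3K27me3 in both KO lines and not at all in WT, with H3K4me3 over 6.4 kb in female KO, 9.4 kb in male KO and 4.6 kb in WT. The fifth, on chromosome 11 from 53953201 to 53973400, had 1027 reads and neither mark in any line.

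The densest members of male KO lay elsewhere. On chromosome 1 from 94995201 to 95000000, male KO had 111 H3K27ac reads per kb, and H3K4me3 and H3K27me3 were present in all 3 lines. The next was 22477801 to 22480000 on chromosome 2, with 109 reads per kb, where H3K4me3 of all 3 lines covered the whole 2.2 kb. In 84776601 to 84781400 of the same chromosome, with 106 reads per kb, H3K4me3 was in male KO alone, over 2.6 kb. A region on chromosome 9 from 21933001 to 21938200 had 92.1 reads per kb, H3K4me3 in all 3 lines, and H3K27me3 of female KO over its whole 5.2 kb. The region on chromosome 13 from 70238801 to 70246600, also at 92.1 reads per kb, had neither mark in any line, and the nearest H3K27ac of female KO and WT was 287 and 288 kb away. All 5 had lower densities than the densest member of female KO.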

How the data were processed

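Per the submitters' processing notes, reads were aligned with Bowtie 1.1.2 and enriched regions called with SICER 1 on mm9. The authors' deposited lists, 1 per library and without a header, give chromosome, start, end and a whole number, taken as the count of reads per region because its values are whole. Control library, false discovery rate and sequenced reads were not given in the sources used here. Ends fall on the last base of a 200 bp grid, and coordinates are printed 1-based. Chromosome lengths of mm9 came from GenomeInfoDb 1.38.1. Computation was done in Python 3.11.15 with pandas 2.3.3, numpy 2.4.6 and scipy 1.17.1, and plots were drawn in matplotlib 3.10.9. Regions were merged by overlap of at least 1 bp. Member counts were checked with bedtools 2.31.1 (difference 0), and 200 of 200 planted regions were recovered per KO line on simulated lists. The planted regions were placed clear of WT regions, so this checks the overlap code and not detection at unequal read depth. Counts were spread evenly over a region for bin densities, and window ratios needed 20 kb of shared bins.

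The members, lists and comparisons were chosen with earlier results of these data known. Regions were named by rule, per KO line: the 5 longest, the 5 densest of at least 2 kb, the 3 with most own H3K4me3 and none elsewhere, the 3 with most WT H3K27me3 and none of their own, the 3 fullest windows and the 3 longest runs. The 5 Mb windows of chromosome 4 were picked after their values were seen.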

Additional observations from a re-analysis of the deposited data

How the results depend on the processing

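No paired analysis was possible because each group has 1 library, and no replicate could be left out. The order of H3K4me3 shares, own line above the other KO line and above WT, held in all 12 alternatives in both lines, and the female KO median width was above that of male KO in all 9 that change it. In male KO alone, own H3K27me3 exceeded that of WT by 0.570 to 3.65 percentage points. Numbers of members, shares and widths moved as follows, female KO alone first. Counting only overlaps of 50% as shared gave 5739 regions in female KO alone and 4814 in male KO alone, which turns round the order of the counts (2706 and 4325 as reported). The female KO ones were 8.0 kb wide, with own H3K4me3 at 42.5% and 39.2% of chromosome 4, and male KO had 33.0% of chromosome 15. Percents of a chromosome under this setting and the next set list regions against merged regions and are not shares. With WT as the only list set against a KO list, 5334 and 7648 regions were left, with H3K4me3 at 31.9 and 28.9%, 36.4 and 35.3% of chromosome 4, 36.9% of chromosome 15 in male KO, and a width of 3.0 kb and H3K27me3 at 12.1% for male KO. Cutting each H3K27ac list at its median count gave 1220 and 1784 regions, not all of them members as reported. They were 11.8 and 5.8 kb wide, with H3K4me3 at 46.8 and 47.4%, H3K27me3 at 26.1 and 9.47%, and 23.2% of chromosome 15. Depth-scaled lists gave 5.6 and 3.0 kb, H3K4me3 at 28.6 and 31.1%, H3K27me3 at 24.9% in female KO alone, 1861 and 2429 regions, 15.1% of chromosome 4 and 16.7% of chromosome 15. Chromosome 15 was then lower than as deposited (28.5%). A margin of 5 kb gave H3K27me3 at 24.3% in female KO alone, 17.6% of chromosome 4 and 23.5% of chromosome 15. A mark that had to cover 50% of a region gave H3K4me3 at 14.6 and 19% and H3K27me3 at 17.6 and 12.5%. A mark within 1 kb gave H3K4me3 at 22.0% in female KO alone and H3K27me3 at 24.3 and 17.9%. Regions of at least 2 kb had H3K4me3 at 18.3% in male KO alone. Without chromosome 4, H3K27me3 was at 13.9% in male KO alone. Without chromosomes 4, 6 and 15, chosen after seeing the data, H3K27me3 was at 19.7 and 13.5%. The cause of these shifts was not tested. A margin of 1 kb and the addition of chromosomes X and Y moved none of these values past their intervals.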

Other observations

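Outside the autosomes, 776 merged H3K27ac regions lay on chromosome X, with 66 in female KO alone, 105 in male KO alone and 88 in WT alone. On chromosome Y all 10 merged H3K27ac regions were in the male KO list alone, and neither the female KO list nor the male WT list held any there. The male WT list of H3K4me3 held 2 regions on chromosome Y, the male KO list 5 and the female KO list 0.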
